A study of Mus musculus with 10 samples.

Results

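The 10 genes described here encode the inhibitors of NF-κB and a set of its best-known feedback targets: the classical IκB proteins (Nfkbia, Nfkbib, Nfkbie), the nuclear IκB proteins (Nfkbiz, Bcl3), regulators of the upstream signal (Tnfaip3, Birc3, Traf1, Ikbke) and the adhesion molecule gene Icam1. They were chosen by name, from what is known of the pathway, and every interval in the deposited lists that overlapped one of them in GENCODE M21 (mouse genome mm10), extended by 20 kb on each side, was taken. After merging across lists, 137 open chromatin regions of 211107 in the genome lay in these windows, which cover 10 of 21938 protein-coding genes.

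NF-κB dimers wait in the cytoplasm, bound by IκB proteins that mask their nuclear import signals. Signals from TNF receptors, Toll-like receptors or DNA damage lead to phosphorylation and destruction of the IκB proteins, and the freed dimers bind κB sites in chromatin. Several genes switched on in this way encode new IκB proteins or enzymes that shut the signal off, and in epithelial tumor cells the same factors also drive inflammatory, survival and adhesion genes.

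ATAC-seq, in which a transposase cuts and tags open chromatin, was carried out on Myc-CaP cells, a mouse prostate cancer line derived from a tumor driven by a Myc transgene. All cells were cultured for 48 h, without drug (Ctrl), with 2 µM oxaliplatin (Oxali), with 2 µM cisplatin (Cispl), with 1000 pg of interferon gamma per ml (IFNγ, the volume being taken from the study's methods) or with 2 µM oxaliplatin and the same dose of IFNγ together (Oxali + IFNγ). Each group had 2 libraries, 10 in all, which the authors pooled before peak calling, so each group is 1 list of regions. No replicate spread can be had from them, no difference below was tested, and the intervals given cover counting error only.

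The read depth behind the lists, measured by their genome background, was 92.9%, 113%, 79.3% and 106% of that of Ctrl in the Oxali, Cispl, IFNγ and Oxali + IFNγ lists, in that order. The level of a region is its highest pileup divided by that background, so that a level of 10.0 is 10 times the coverage expected across the genome. A region is called in a list when the authors' caller kept it, and a pileup of 18 to 26, depending on the list, was needed where the local background was no higher than the genome's. Where the local background was higher, the pileup needed was higher. In Slc35b2, near Nfkbie, a Ctrl region with a pileup of 133 had a −log10 q-value of only 4.00. A region missing from a list was therefore below the threshold at its own place, which could lie above 26. It was not shown to be closed. As a check of the cell type, the start sites of the luminal prostate genes Krt8, Krt18, Hoxb13 and Foxa1 were called in Ctrl, whereas those of the epithelial genes Epcam and Cdh1 had no call there. Start sites of 0 of 5 immune genes and 0 of 2 endothelial genes were called in Ctrl, and in the treated lists only Lyz2 among these was called, at 4.03 to 5.06 in the lists with a platinum drug. All 3 stromal genes were called in Ctrl, with Pdgfra at a level of 112, as was 1 of 3 basal genes (Krt14, 2.88).

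Sequences under several of the summits are shown because they match the NF-κB consensus, and no binding of NF-κB was measured. The consensus was looked for on either strand up to 100 bp from a summit, overlapping matches were kept, and capitals mark the matching bases. The windows are those that hold a match, lie under a region described below and overlap no untranslated region. The matched windows at the starts of Nfkbib, Nfkbie, Nfkbiz and Tnfaip3 and over the start of Bcl3 overlap one and are not shown. Most of the windows shown lie under regions gained or raised with a platinum drug, and they do not stand for all regions with a match, whose ratios are given near the end:
Icam1 intron, highest ratio to Ctrl among regions called in both lists, chr9:21021964-21022164, forward strand: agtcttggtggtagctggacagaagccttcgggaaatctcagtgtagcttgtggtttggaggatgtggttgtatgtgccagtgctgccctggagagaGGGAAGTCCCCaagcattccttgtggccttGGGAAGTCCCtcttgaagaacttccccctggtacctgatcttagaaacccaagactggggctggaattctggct
Icam1 region near the start, chr9:21016685-21016885, forward strand: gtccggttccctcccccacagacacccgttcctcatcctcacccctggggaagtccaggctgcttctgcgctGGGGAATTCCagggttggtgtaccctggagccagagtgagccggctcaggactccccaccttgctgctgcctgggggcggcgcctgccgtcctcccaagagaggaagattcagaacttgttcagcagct
Nfkbie intron, first region, chr17:45557484-45557684, forward strand: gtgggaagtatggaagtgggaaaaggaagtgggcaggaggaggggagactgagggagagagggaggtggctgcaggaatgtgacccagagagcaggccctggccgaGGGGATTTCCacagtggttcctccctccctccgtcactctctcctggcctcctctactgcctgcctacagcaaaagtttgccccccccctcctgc
Nfkbie intron, next region, chr17:45558113-45558313, forward strand: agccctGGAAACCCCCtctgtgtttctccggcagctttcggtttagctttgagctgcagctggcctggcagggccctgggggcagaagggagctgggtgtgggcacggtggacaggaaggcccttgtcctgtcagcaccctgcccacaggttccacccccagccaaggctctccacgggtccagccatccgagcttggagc
Tnfaip3 intron, chr10:19008754-19008954, forward strand: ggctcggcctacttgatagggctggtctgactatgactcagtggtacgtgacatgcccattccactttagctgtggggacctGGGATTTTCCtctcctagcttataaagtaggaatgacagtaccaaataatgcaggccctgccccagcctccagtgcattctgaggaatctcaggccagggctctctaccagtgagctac
Tnfaip3 intron, adjacent region, chr10:19009431-19009631, forward strand: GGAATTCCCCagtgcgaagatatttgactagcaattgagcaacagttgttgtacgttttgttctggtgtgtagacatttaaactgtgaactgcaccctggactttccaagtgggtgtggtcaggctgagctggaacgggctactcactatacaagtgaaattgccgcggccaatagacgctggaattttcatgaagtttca
Nfkbiz intron, chr16:55820564-55820764, forward strand: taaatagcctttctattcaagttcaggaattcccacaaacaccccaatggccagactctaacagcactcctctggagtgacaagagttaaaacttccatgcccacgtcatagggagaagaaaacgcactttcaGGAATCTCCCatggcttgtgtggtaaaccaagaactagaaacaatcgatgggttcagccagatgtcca
Bcl3 upstream, chr7:19826822-19827022, forward strand: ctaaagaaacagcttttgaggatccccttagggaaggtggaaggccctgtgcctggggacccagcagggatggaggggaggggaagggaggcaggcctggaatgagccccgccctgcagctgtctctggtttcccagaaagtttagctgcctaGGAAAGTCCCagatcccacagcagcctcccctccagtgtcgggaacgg
Bcl3 region just upstream of the start, chr7:19824271-19824471, forward strand: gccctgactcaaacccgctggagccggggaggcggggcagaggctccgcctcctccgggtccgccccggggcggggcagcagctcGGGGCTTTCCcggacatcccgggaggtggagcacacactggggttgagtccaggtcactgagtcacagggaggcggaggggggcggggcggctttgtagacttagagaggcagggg
Nfkbia start-site region, intron, chr12:55491945-55492145, forward strand: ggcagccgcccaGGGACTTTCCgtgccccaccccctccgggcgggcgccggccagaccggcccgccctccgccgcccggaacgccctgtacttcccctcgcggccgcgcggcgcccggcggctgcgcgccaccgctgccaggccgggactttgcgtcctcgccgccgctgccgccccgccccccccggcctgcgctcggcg
The windows are from the GRCm38.p6 assembly, the same build as mm10. None of them overlaps an annotated coding exon or untranslated region, and the first of Tnfaip3 overlaps an exon of a transcript without coding sequence. Of the RefSeq promoters (the 250 bases before a start, same assembly), those of Nfkbia and Nfkbie are shown because they hold a match just before the start of a classical IκB gene, 29 bases before it for Nfkbia and 106 bases before it for Nfkbie:
Nfkbia promoter, chr12:55492648-55492897, reverse strand: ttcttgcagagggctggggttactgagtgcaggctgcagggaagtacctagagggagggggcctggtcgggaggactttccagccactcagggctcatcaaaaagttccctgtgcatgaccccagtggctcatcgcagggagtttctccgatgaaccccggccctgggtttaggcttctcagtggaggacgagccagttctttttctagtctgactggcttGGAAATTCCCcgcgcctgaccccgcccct
Nfkbie promoter, chr17:45555450-45555699, forward strand: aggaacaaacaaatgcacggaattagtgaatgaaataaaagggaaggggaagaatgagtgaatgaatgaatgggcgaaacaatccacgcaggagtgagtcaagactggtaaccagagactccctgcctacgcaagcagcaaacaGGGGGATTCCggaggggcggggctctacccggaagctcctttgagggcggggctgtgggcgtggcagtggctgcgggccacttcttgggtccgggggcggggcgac

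A match to the consensus was found in 19 of the 137 regions (13.9%) and in 4.05% of all regions of the genome. The same letters in reverse order, searched as a comparison, were found in 8.03% and 5.25%. The matches were most frequent at the genes' own start sites, where 8 of 14 regions (57.1%) held one, against 6.48% of the 16888 start-site regions of the genome. These 8 regions belonged to Nfkbia (GGGACTTTCC), Nfkbib (GGGAATTCCC), Nfkbie (GGGGGATTCC), Nfkbiz (GGAAATTCCC), Bcl3 (GGGACTTCCC and GGGGCTTTCC, in separate regions), Tnfaip3 (GGGGTGTCCC) and Icam1 (GGGGAATTCC). The start-site regions of Traf1 and Ikbke held none. Outside the start sites 11 of 123 regions (8.94%) held a match, against 3.84% in the genome and beside 8.13% for the reversed letters. The 10 genes were listed as known inhibitors and feedback targets of NF-κB, so these shares describe them and are no independent evidence. In the promoters, 7.25% of 32851 RefSeq entries held a match. Entries were matched by symbol for 9 of the 10 genes, all but Nfkbiz. Nfkbia and Nfkbie had 1 match each and Tnfaip3 had 2, at 125 and 12 bases before the start in 1 of its 2 entries. Nfkbib, Bcl3, Birc3, Traf1, Ikbke and Icam1 had none in this window.

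The chromatin around these genes was open before treatment. Of the 137 regions, 77 (56.2%) were called in all 5 lists, against 40.4% in the genome, and 25 (18.2%) in 1 list only, against 23.7%. Ctrl held 87 of them, Oxali 102, Cispl 120, IFNγ 90 and Oxali + IFNγ 109. Their median level was 17.2 in Ctrl, 12.7 with IFNγ, 17.5 with Oxali, 16.9 with Oxali + IFNγ and 13.2 with Cispl. Each median is over the regions called in that list, so the sets differ, and ratios over regions called in both lists are given below. By position, 14 lay at the genes' own starts, 29 in their introns, 4 in their exons, 24 upstream, 32 downstream, and 34 at the start or in the body of a neighboring gene.

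**Figure D1:**
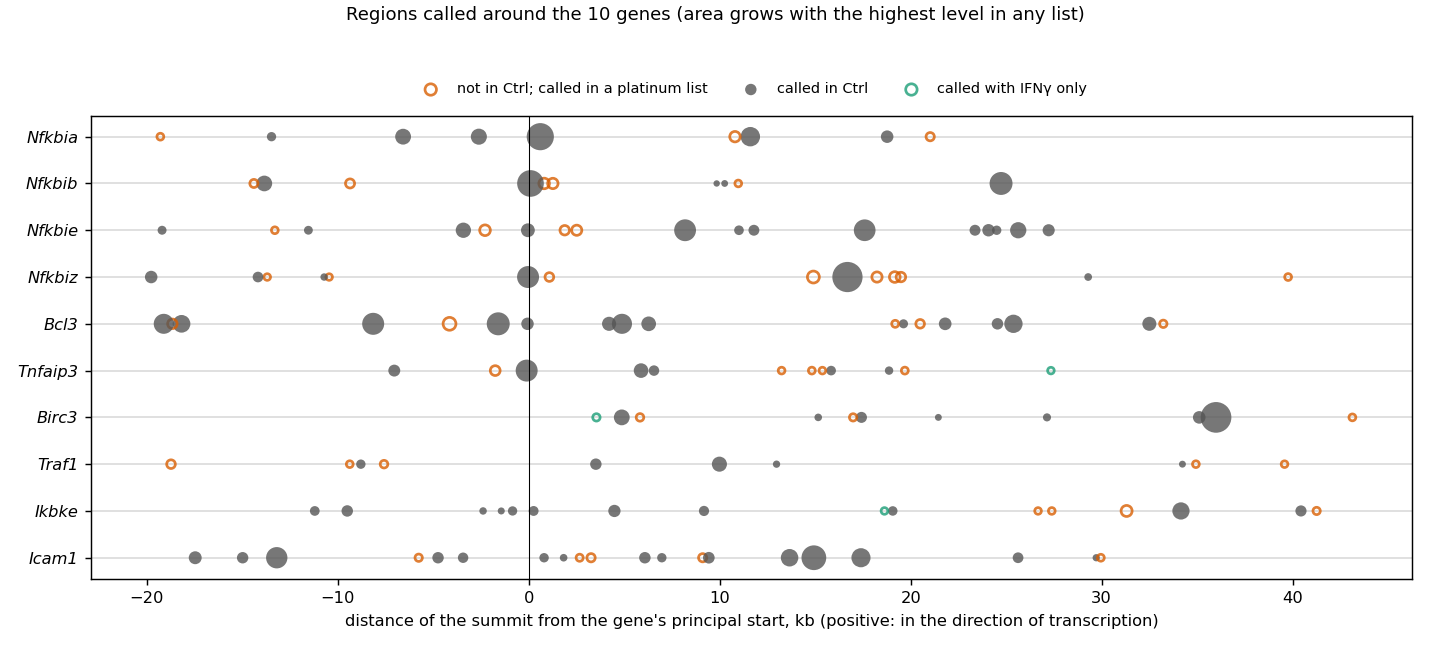
Positions of the 137 regions around the principal start of each gene (x axis, kb, positive in the direction of transcription, 1 row a gene). Filled circles were called in Ctrl, open orange circles were not and were called in at least 1 list with a platinum drug, open green circles were called with IFNγ only, and the area grows with the highest level in any list. The largest filled circles lie at starts of these genes or of their neighbors, and no region lies within 1 kb of the start of Birc3.

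A region was counted as gained when it passed a q-value of 0.01 in a treated list (strong) and overlapped no region of any strength in Ctrl, and as lost in the mirror case. With Oxali 25 of 111 strong regions were gained (22.5%, 95% Wilson interval 15.7 to 31.1), against 32.5% of strong regions in the genome. With Cispl 42 of 126 were gained (33.3%, 25.7 to 41.9), against 37.3%. With IFNγ 13 of 96 were gained (13.5%, 8.09 to 21.8), against 12.9%. With Oxali + IFNγ 30 of 111 were gained (27.0%, 19.6 to 36.0), against 38.4%. The shares with Oxali and with Oxali + IFNγ were thus below those of the genome, and the other shares lay near them. A stricter q-value or an equal number of regions per list moved some of these shares, as given at the end. No genome share was computed for those settings.

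All 10 genes had a gained region in the window in each list with a platinum drug, and 9 had one with IFNγ, all but Bcl3. A gain within 20 kb is common in the lists with a platinum drug. Of protein-coding genes, 73.4% had one with Oxali, 78.1% with Oxali + IFNγ and 79.6% with Cispl. With IFNγ 44.7% of protein-coding genes had one, below the 9 of 10 here (90.0%, 95% Wilson interval 59.6 to 98.2). Windows differ in their number of regions, which was not taken into account. The number of gained regions per gene ran from 1 (Tnfaip3, Birc3, Ikbke) to 4 (Nfkbib, Nfkbie, Nfkbiz) with Oxali, from 3 (Bcl3, Birc3, Traf1) to 7 (Icam1) with Cispl and from 1 (Birc3, Ikbke, Icam1) to 7 (Nfkbiz) with Oxali + IFNγ. Part of the gains were next to a region that Ctrl had. Farther than 500 bp from any Ctrl region lay 15 of 25 with Oxali, 25 of 42 with Cispl, 5 of 13 with IFNγ and 23 of 30 with Oxali + IFNγ, which left 13.5%, 19.8%, 5.21% and 20.7% of the strong regions, against 26.3%, 28.4%, 7.93% and 32.0% in the genome.

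Losses were few. Of 90 strong Ctrl regions, 5 were lost with Oxali (5.56%, genome 9.11%), 5 with Cispl (5.56%, genome 5.90%), 7 with IFNγ (7.78%, genome 15.8%) and 6 with Oxali + IFNγ (6.67%, genome 7.59%). In Nfkbia, Nfkbib, Bcl3 and Tnfaip3 no strong region was lost in any of the lists.

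**Figure D2:**
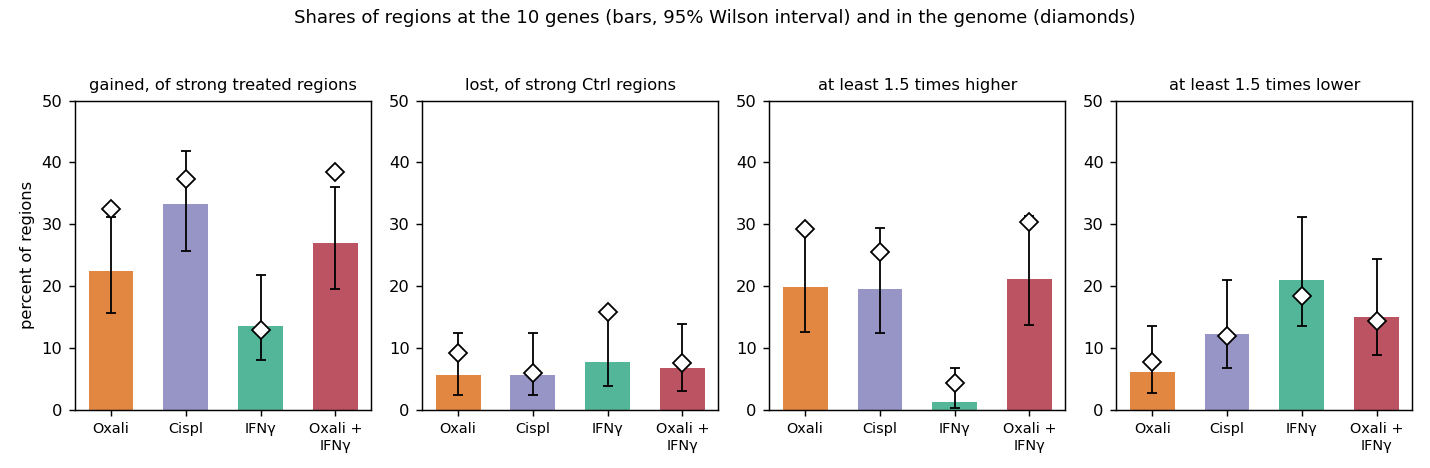
Percent of regions (y axis) gained, lost, or at least 1.5 times higher or lower than in Ctrl, for the 4 treatments (x axis). Bars are the regions at the 10 genes with 95% Wilson intervals of counting error, and diamonds the same share over the genome. The bar for gains with Oxali (22.5%) stands below its diamond (32.5%), and the bar for IFNγ gains (13.5%) nearly meets its diamond (12.9%).

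For regions called in Ctrl and in a treated list, the level was compared directly. At least 1.5 times higher were 16 of 81 with Oxali (19.8%, genome 29.2%), 16 of 82 with Cispl (19.5%, genome 25.5%), 1 of 81 with IFNγ (1.23%, genome 4.26%) and 17 of 80 with Oxali + IFNγ (21.2%, genome 30.4%). At least 1.5 times lower were 5 of 81 with Oxali (6.17%, genome 7.68%), 10 of 82 with Cispl (12.2%, genome 12.0%), 17 of 81 with IFNγ (genome 18.4%) and 12 of 80 with Oxali + IFNγ (15.0%, genome 14.3%). Centring each list on the regions called in all 5 lists turned the order of the lower shares, here and over the genome. They were then 7.41% with IFNγ (genome 6.92%), 38.3% with Oxali (genome 25.6%), 43.8% with Oxali + IFNγ (genome 28.7%) and 29.3% with Cispl (genome 23.1%). Without centring, the median ratio was 0.938 with Oxali (genome 1.14), 0.9503 with Cispl (genome 1.09), 0.830 with IFNγ (genome 0.854) and 0.909 with Oxali + IFNγ (genome 1.13). On the log2 scale the genome medians were -0.23 with IFNγ, 0.19 with Oxali, 0.18 with Oxali + IFNγ and 0.13 with Cispl, so a ratio near 1 lies below the middle of the genome with a platinum drug and above it with IFNγ. Relative to these medians 53 of 81 regions were lower with Oxali, 47 of 82 with Cispl, 42 of 81 with IFNγ and 49 of 80 with Oxali + IFNγ. The position split this. At the genes' own starts the median ratio of 12 regions was above that of the genome's start sites, at 0.722 against 0.669 with Cispl, 0.879 against 0.758 with Oxali, 0.727 against 0.580 with Oxali + IFNγ and 0.724 against 0.701 with IFNγ. Elsewhere it was below that of the genome, at 0.961 against 1.15 with Cispl, 0.968 against 1.204 with Oxali, 0.912 against 1.205 with Oxali + IFNγ and 0.855 against 0.883 with IFNγ.

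The ratio moved with the level in Ctrl, across the genome as at these genes. Regions of the genome with a Ctrl level of 50 or more had median ratios of 0.709 with IFNγ, 0.749 with Oxali, 0.578 with Oxali + IFNγ and 0.637 with Cispl, and the 20 regions of this class at the 10 genes had 0.762, 0.785, 0.665 and 0.695. Regions with a Ctrl level under 5 had genome medians of 1.04, 1.48, 1.52 and 1.47 in this order, and those at the 10 genes had 1.03, 1.39, 1.69 and 1.55. The part of the starting level in any single ratio was not tested.

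**Figure D3:**
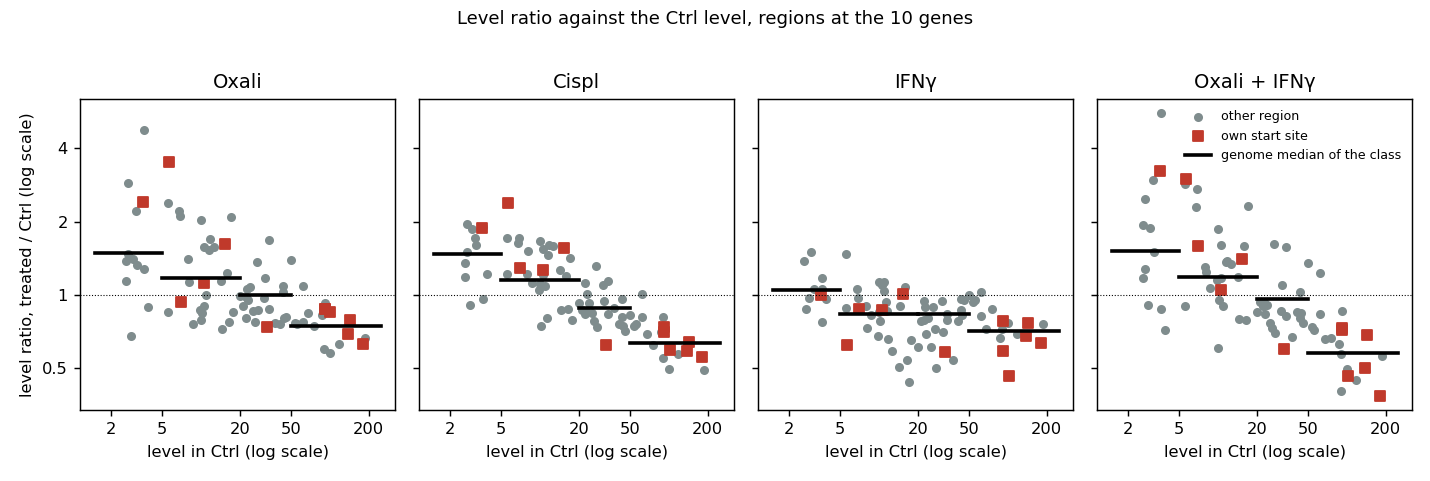
Ratio of the level in each treated list to Ctrl (y axis, log scale) against the level in Ctrl (x axis, log scale), for regions at the 10 genes called in both lists. Red squares are the genes' own start sites, grey circles other regions, black lines the genome median for Ctrl levels under 5, 5 to 20, 20 to 50 and 50 or more, and the dotted line a ratio of 1. Start sites with high Ctrl levels lie under 1 in every panel, and the highest ratios, 4.77 with Oxali and 5.58 with Oxali + IFNγ, belong to an intronic region of Icam1.

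Nfkbia encodes IκBα, the inhibitor that is destroyed and remade fastest in an NF-κB response. Its start-site region (chr12:55491636-55492962) had levels of 114 with Oxali, 98.8 with Oxali + IFNγ and 92.6 with Cispl, beside 144 in Ctrl and 111 with IFNγ. The untreated level was the highest, with ratios to Ctrl of 0.792 (0.737 to 0.852) for Oxali, 0.643 (0.598 to 0.691) for Cispl, 0.686 (0.637 to 0.737) for Oxali + IFNγ and 0.768 (0.711 to 0.829) for IFNγ (95% counting intervals in parentheses, here and below). All were somewhat above the genome medians of its class. Downstream of the gene, 10798 bp from the start, a region absent from Ctrl and IFNγ was the strongest gain with each platinum treatment (chr12:55481739-55481965), at 10.97 with Cispl, 15.7 with Oxali and 14.96 with Oxali + IFNγ. It lies right beside a region called in all 5 lists (chr12:55480191-55481669), at 50.4 in Ctrl. The strongest gain with IFNγ (chr12:55471508-55471719) was at 5.92 with IFNγ, 5.52 with Cispl and 7.44 with Oxali + IFNγ. Among regions called in all lists, the widest spread belonged to a region 13474 bp upstream, at 9.97 in Ctrl, 8.52 with IFNγ, 7.896 with Oxali, 6.04 with Oxali + IFNγ and 11.04 with Cispl. It was lowest with Oxali + IFNγ.

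Nfkbib encodes IκBβ, and its start-site region (chr7:28765993-28767042) also covers the start of Sirt2. The levels were 139 in Ctrl and 94.2 with IFNγ alone, and 81.9 with Cispl, 95.7 with Oxali and 69.2 with Oxali + IFNγ. Ctrl was again the highest and Oxali + IFNγ the lowest, at a ratio of 0.499 (0.460 to 0.542) against a class median of 0.578. With the deposited fold over local background in place of the level this ratio was 0.812. A neighboring region inside the gene (chr7:28765556-28765939) was called at 16.3 with Cispl and 8.83 with Oxali + IFNγ and in no other list. In the body of Sirt2, a deacetylase gene, a region 9362 bp upstream was the strongest gain with Cispl and with Oxali + IFNγ, at 9.74 with Cispl, 5.77 with Oxali and 10.3 with Oxali + IFNγ. The widest spread lay 13851 bp upstream, also in Sirt2, at 36.99 with Oxali, 43.7 with Oxali + IFNγ and 35.5 with Cispl, beside 27.1 in Ctrl and 19.7 with IFNγ. All lists with a platinum drug were above Ctrl there, but as deposited fold the ratio was 0.915 for Cispl and 1.04 for Oxali + IFNγ. The strongest gains with Oxali and with IFNγ were small intervals within a merged region at the starts of Mrps12 and Sars2, which stood at 101 in Ctrl, 77.6 with IFNγ, 58.6 with Oxali, 49.98 with Oxali + IFNγ and 50.1 with Cispl.

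Nfkbie encodes IκBε, a slower-acting inhibitor, and its introns held a pair of gained regions with the consensus. Its start-site region (chr17:45555469-45556159) had levels of 32.3 in Ctrl and 18.8 with IFNγ alone, and 20.1 with Cispl, 23.9 with Oxali and 19.3 with Oxali + IFNγ. All treated levels were below Ctrl, with ratios of 0.739 for Oxali, 0.598 for Oxali + IFNγ, 0.623 for Cispl and 0.583 for IFNγ, each below its class median. The first intronic region (chr17:45557265-45557719), 1881 bp from the start, was called at 6.68 with Cispl, 11.2 with Oxali and 11.8 with Oxali + IFNγ. The next (chr17:45557783-45558368), 2510 bp from the start, was called at 6.98 with Cispl, 8.96 with Oxali and 14.6 with Oxali + IFNγ. Neither was called in Ctrl or IFNγ, both were gained in each list that held them, and both hold the consensus shown above.

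Upstream of Nfkbie a region 2293 bp from the start (chr17:45553287-45553536) was gained in every treated list, at 5.30 with IFNγ, 9.74 with Cispl, 11.9 with Oxali and 16.7 with Oxali + IFNγ. Its level with IFNγ was the lowest of these. The widest spread of the window lay in Tmem151b, 11543 bp upstream, at 6.92 with Oxali, 9.299 with Oxali + IFNγ and 5.38 with Cispl, beside 3.13 in Ctrl and 3.33 with IFNγ. The strongest gain with IFNγ was an interval within a region of Slc35b2 that Ctrl also held, at 11.5 in Ctrl, 9.87 with IFNγ, 17.7 with Oxali, 15.8 with Oxali + IFNγ and 16.9 with Cispl. With IFNγ this merged region also counted a lost interval.

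Nfkbiz encodes IκBζ, a nuclear IκB protein that turns on secondary inflammatory genes, and it has principal starts at its 5′ end and inside the gene. The region at the upstream start (chr16:55838116-55839531) had levels of 92.1 in Ctrl and 71.8 with IFNγ alone, and 68.4 with Cispl, 81.0 with Oxali and 66.2 with Oxali + IFNγ. That at the internal start (chr16:55821481-55822699), 16688 bp downstream, had levels of 113 with Oxali, 69.6 with Oxali + IFNγ and 99.98 with Cispl, beside 180.2 in Ctrl and 114 with IFNγ. The internal start had the lower ratio with Oxali + IFNγ, 0.386 (0.357 to 0.418), which 90.5% of genome regions of its class matched or exceeded. The upstream start had 0.719 (0.657 to 0.786), above the class median of 0.578, and 29.5% of the class were as high. Within the merged region at the upstream start, small intervals not overlapping Ctrl counted as gains with Oxali and Oxali + IFNγ. A region just inside the gene, 1077 bp from the upstream start, was called only at 8.94 with Cispl and 8.68 with Oxali + IFNγ.

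The introns around the internal start of Nfkbiz held the strongest gains of the gene. A region 14904 bp from the upstream start (chr16:55823884-55824127) was gained in every treated list, at 14.7 with IFNγ, 19.9 with Cispl, 22.5 with Oxali and 19.6 with Oxali + IFNγ. A region with the consensus, shown above (chr16:55820566-55820789), was gained at 13.7 with Cispl and 14.9 with Oxali + IFNγ and called in no other list. The strongest gain with IFNγ was an interval in a weak downstream region that all lists held, at 2.97 in Ctrl, 4.47 with IFNγ, 4.17 with Oxali, 5.58 with Oxali + IFNγ and 5.52 with Cispl.

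Bcl3 encodes a nuclear IκB protein that binds p50 and p52 dimers. The region over its start (chr7:19822463-19823014) had levels of 15.5 in Ctrl and 15.6 with IFNγ alone, and 24.2 with Cispl, 25.1 with Oxali and 21.7 with Oxali + IFNγ. The lists with a platinum drug were higher than Ctrl and IFNγ, with ratios of 1.62 (1.34 to 1.96) for Oxali, 1.56 (1.303 to 1.88) for Cispl and 1.401 (1.16 to 1.69) for Oxali + IFNγ, and IFNγ alone was at 1.01 (0.807 to 1.25). In the genome class with a Ctrl level of 5 to 20, 21.2% of regions had a ratio as high with Cispl, 25.1% with Oxali and 36.4% with Oxali + IFNγ. A stronger region just upstream, with its summit 1601 bp before the start (chr7:19823517-19824755), was highest in Ctrl, at 86.6 with Oxali, 46.9 with Oxali + IFNγ and 60.01 with Cispl, beside 101 in Ctrl and 46.98 with IFNγ. Its ratio with IFNγ of 0.464 (0.416 to 0.517) was low for its class, whose median was 0.709 and where 97.7% of genome regions were as high or higher. The consensus lies under both summits.

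Farther upstream of Bcl3, 4152 bp from the start, a region with the consensus (chr7:19826809-19827021) was gained at 26.4 with Cispl and 27.2 with Oxali + IFNγ and was called in no other list. The strongest gain with Oxali lay downstream, 20495 bp from the start, at 8.61 with Oxali only. A region 24545 bp downstream of the start, named after its values were seen because it was at least 2 times Ctrl in a treated list, had levels of 10.1 in Ctrl, 11.3 with IFNγ, 20.4 with Oxali, 18.8 with Oxali + IFNγ and 16.8 with Cispl. Bcl3 had no gained region with IFNγ.

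Tnfaip3 encodes A20, a ubiquitin-editing enzyme that ends the signal upstream of the IκB kinases. Its start-site region (chr10:19014353-19015944) had levels of 91.9 in Ctrl and 54.04 with IFNγ alone, and 64.5 with Cispl, 80.8 with Oxali and 67.6 with Oxali + IFNγ. Ctrl was the highest and IFNγ the lowest, with a ratio of 0.588 (0.529 to 0.653) against a class median of 0.709, while the lists with a platinum drug lay above their class medians. An intronic region 6556 bp from the start (chr10:19008474-19009038), named after its values were seen, was lowest in Ctrl, at 13.2 with Oxali, 15.8 with Oxali + IFNγ and 9.45 with Cispl, beside 5.52 in Ctrl and 8.11 with IFNγ. Its ratios were 2.39 (1.78 to 3.25) for Oxali, 1.71 (1.26 to 2.33) for Cispl, 2.86 (2.16 to 3.83) for Oxali + IFNγ and 1.47 (1.05 to 2.07) for IFNγ, and the consensus lies in the window shown above. By the deposited fold over local background they were 1.48, 1.16, 1.69 and 1.61. The adjacent intronic region (chr10:19009093-19009783), 5879 bp from the start, with a match and also named after its values were seen, had levels of 31.6 in Ctrl and 22.2 with IFNγ alone, and 29.8 with Cispl, 36.99 with Oxali and 34.6 with Oxali + IFNγ. Its ratios were 1.17 (1.02 to 1.35) for Oxali, 0.942 (0.817 to 1.09) for Cispl, 1.09 (0.953 to 1.26) for Oxali + IFNγ and 0.703 (0.592 to 0.833) for IFNγ, and that for Oxali was 0.742 by the deposited fold and 0.904 after centring.

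Downstream of Tnfaip3 the widest spread lay 18867 bp from the start, at 2.72 in Ctrl, 2.39 with IFNγ, 7.81 with Oxali, 6.74 with Oxali + IFNγ and 5.304 with Cispl. The lists with a platinum drug lay above Ctrl and IFNγ. Oxali and Oxali + IFNγ shared their strongest gain, a weak region 19693 bp from the start, at 2.69 with Cispl, 3.19 with Oxali and 3.02 with Oxali + IFNγ. That of Cispl lay 1759 bp upstream, at 13.1 with Cispl only. The gain with IFNγ was a region at 2.29 with IFNγ, called in that list only.

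Birc3 encodes cIAP2, a ubiquitin ligase of the TNF receptor complex, and was the gene of the 10 with no region at a principal start. The nearest called region was 4518 bp away in Ctrl, 3491 bp with IFNγ, 4448 bp with Oxali, 4438 bp with Oxali + IFNγ and 4424 bp with Cispl. Its adjacent paralog Birc2 had a start-site region in the same window, at 186 in Ctrl and 141 with IFNγ alone, and 91.9 with Cispl, 124 with Oxali and 104 with Oxali + IFNγ. The widest spread was in an intron of Birc3 17421 bp from the start (chr9:7855266-7855751), at 16.3 with Oxali, 17.05 with Oxali + IFNγ and 18.2 with Cispl, beside 14.3 in Ctrl and 7.28 with IFNγ. IFNγ was the low list there, with a ratio of 0.508 (0.379 to 0.674). A weak exonic region 16984 bp from the start, right beside that intronic region, was the strongest gain with each platinum treatment, at 3.63 with Cispl, 3.55 with Oxali and 4.34 with Oxali + IFNγ. That of IFNγ lay in Birc2, at 3.01 with IFNγ and 2.25 with Cispl.

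Traf1 encodes an adaptor of TNF receptor complexes, and with Icam1 it held the highest ratios to Ctrl. The region over its internal principal start (chr2:34957727-34959159), 3512 bp inside the gene, had levels of 5.68 in Ctrl, 3.53 with IFNγ, 20.05 with Oxali, 16.97 with Oxali + IFNγ and 13.6 with Cispl. The lists with a platinum drug were all higher than Ctrl and IFNγ, with ratios of 3.53 (2.68 to 4.69) for Oxali, 2.39 (1.805 to 3.198) for Cispl and 2.99 (2.27 to 3.97) for Oxali + IFNγ, while IFNγ was at 0.622 (0.3997 to 0.951). Over the genome, 3.901% of regions with a Ctrl level of 5 to 20 had a ratio as high with Cispl, 1.54% with Oxali and 3.73% with Oxali + IFNγ. By the deposited fold over local background the ratios were 2.39 for Oxali, 2.02 for Cispl, 1.903 for Oxali + IFNγ and 0.619 for IFNγ. The outermost annotated start of Traf1 had no region within 1 kb, the nearest being 2613 to 3346 bp away.

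An intronic region of Traf1 9982 bp from the outer start (chr2:34951316-34952276), named after its values were seen, had levels of 17.2 in Ctrl and 7.59 with IFNγ alone, and 24.4 with Cispl, 36.1 with Oxali and 39.8 with Oxali + IFNγ. Its ratios were 2.097 (1.77 to 2.49) for Oxali, 1.42 (1.19 to 1.69) for Cispl, 2.31 (1.97 to 2.73) for Oxali + IFNγ and 0.441 (0.333 to 0.578) for IFNγ. The difference with the platinum drugs depended on the background used. As deposited fold over local background the ratios were 0.994 for Oxali, 0.917 for Cispl, 1.02 for Oxali + IFNγ and 0.452 for IFNγ, so the lower value with IFNγ stood on both scales and the higher values did not. The strongest gain with each platinum treatment lay 18738 bp upstream, at 5.16 with Cispl, 8.69 with Oxali and 7.83 with Oxali + IFNγ. The gain with IFNγ was an interval within the start-site region.

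Ikbke encodes IKKε, a kinase that links NF-κB and interferon signalling. The region over its start (chr1:131279063-131279802) had levels of 11.8 with Oxali, 11.0 with Oxali + IFNγ and 13.4 with Cispl, beside 10.5 in Ctrl and 9.15 with IFNγ. The counting intervals of the ratios with Oxali (0.871 to 1.44), Oxali + IFNγ (0.816 to 1.34) and IFNγ (0.654 to 1.15) included 1, and that with Cispl, at a ratio of 1.27 (1.006 to 1.601), did not. Its genome class had a median ratio of 1.15 with Cispl, and 39.5% of the class were as high. A region 850 bp upstream had 7.002 in Ctrl, 6.13 with IFNγ, 6.56 with Oxali, 11.2 with Oxali + IFNγ and 9.01 with Cispl, and was highest with Oxali + IFNγ, at a ratio of 1.59 (1.21 to 2.11). In its genome class 27.5% were as high with Oxali + IFNγ. Differences were wider at a distance. In the neighboring gene Rassf5, 40439 bp from the start, the levels were 6.92 in Ctrl and 6.76 with IFNγ alone, and 11.8 with Cispl, 14.5 with Oxali and 18.8 with Oxali + IFNγ. As deposited fold the ratio with Oxali + IFNγ there was 1.51, beside 2.72 by level. Each platinum treatment had its strongest gain 31307 bp from the start, at 13.1 with Cispl, 14.99 with Oxali and 18.2 with Oxali + IFNγ. That of IFNγ lay in Rassf5, at 3.12 with IFNγ, 4.29 with Cispl and 2.395 with Oxali.

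Icam1 encodes the adhesion molecule by which leukocytes bind other cells, and it held the region with the highest ratio to Ctrl. An intronic region 6079 bp from the start (chr9:21021904-21022771), whose summit window above holds 3 matches, had levels of 17.3 with Oxali, 20.2 with Oxali + IFNγ and 6.902 with Cispl, beside 3.62 in Ctrl and 3.85 with IFNγ. The lists with oxaliplatin were far above the rest, with ratios of 4.77 (3.43 to 6.78) for Oxali and 5.58 (4.04 to 7.87) for Oxali + IFNγ. Cispl was at 1.904 (1.32 to 2.79) and IFNγ at 1.06 (0.666 to 1.68). Of the genome's regions with a Ctrl level under 5, 2.08% had a ratio as high with Oxali and 1.304% with Oxali + IFNγ, while 28.1% were as high with Cispl. By the deposited fold over local background the ratios were 3.205 for Oxali, 1.43 for Cispl, 3.47 for Oxali + IFNγ and 1.19 for IFNγ.

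No region covered the annotated start of Icam1, and the nearest in Ctrl began 471 bp inside the gene. This region (chr9:21016456-21017036), with its summit 800 bp from the start, had levels of 3.54 in Ctrl, 3.53 with IFNγ, 8.52 with Oxali, 11.5 with Oxali + IFNγ and 6.68 with Cispl. Its ratios were 2.404 (1.66 to 3.53) for Oxali, 1.89 (1.30 to 2.78) for Cispl, 3.24 (2.29 to 4.66) for Oxali + IFNγ and 0.998 (0.617 to 1.601) for IFNγ, and as deposited fold 1.42, 1.22, 1.79 and 0.939. Ratios as high were found in 28.7% of the genome class with Cispl, 18.2% with Oxali and 9.39% with Oxali + IFNγ. The region also held a Ctrl interval that was lost with IFNγ. Oxali and Oxali + IFNγ had their strongest gain in an exonic region 3260 bp from the start, at 5.01 with Cispl, 5.68 with Oxali and 7.52 with Oxali + IFNγ. Cispl and IFNγ had theirs as intervals in a region 3441 bp upstream that all lists held, at 6.75 in Ctrl and 7.17 with IFNγ alone, and 11.04 with Cispl, 14.99 with Oxali and 15.6 with Oxali + IFNγ.

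**Figure D4:**
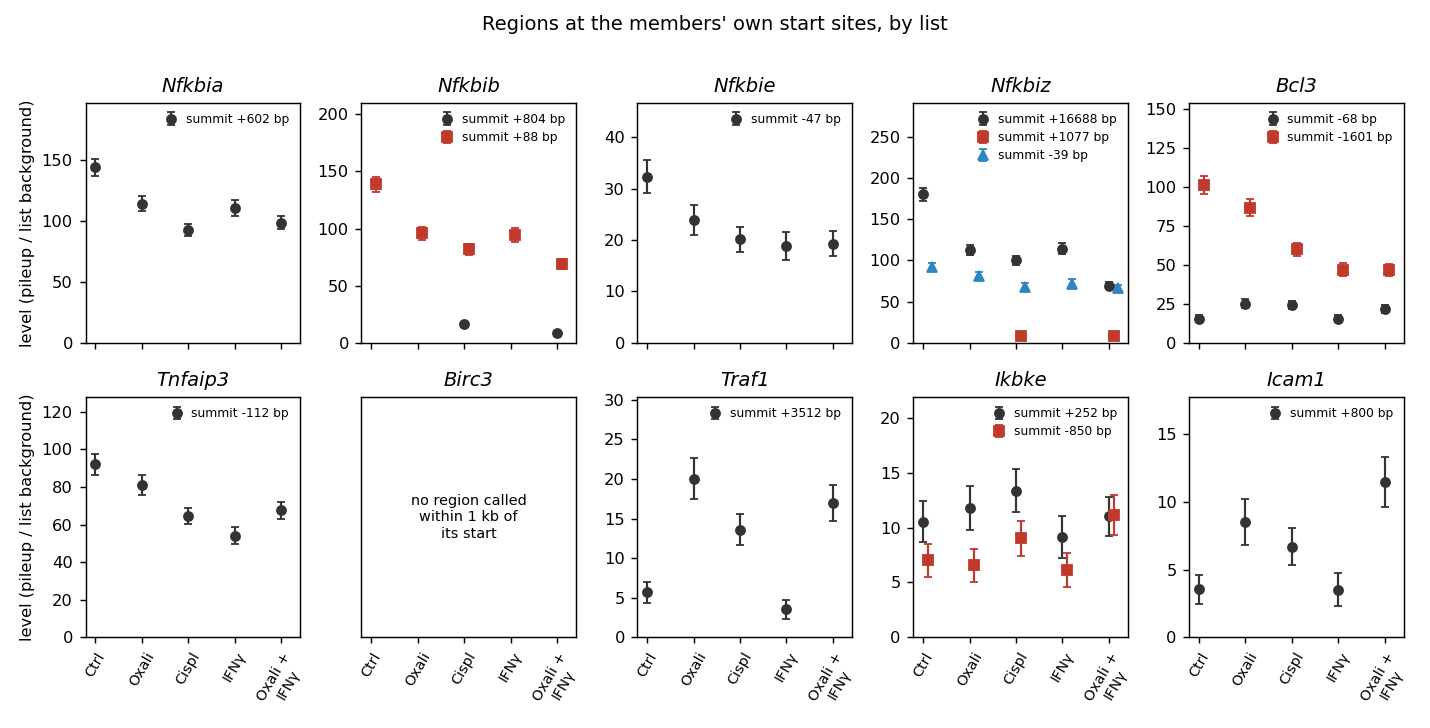
Level (pileup divided by the list's background, y axis, from 0) of every region at the genes' own starts in each list (x axis), with bars for 95% Poisson counting error and the summit's distance from the principal start in the legend. Strong starts such as Nfkbia (144 in Ctrl, 98.8 in Oxali + IFNγ) were highest in Ctrl, the weak starts of Traf1 and Icam1 were highest with oxaliplatin, and Birc3 had no region.

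**Figure D5:**
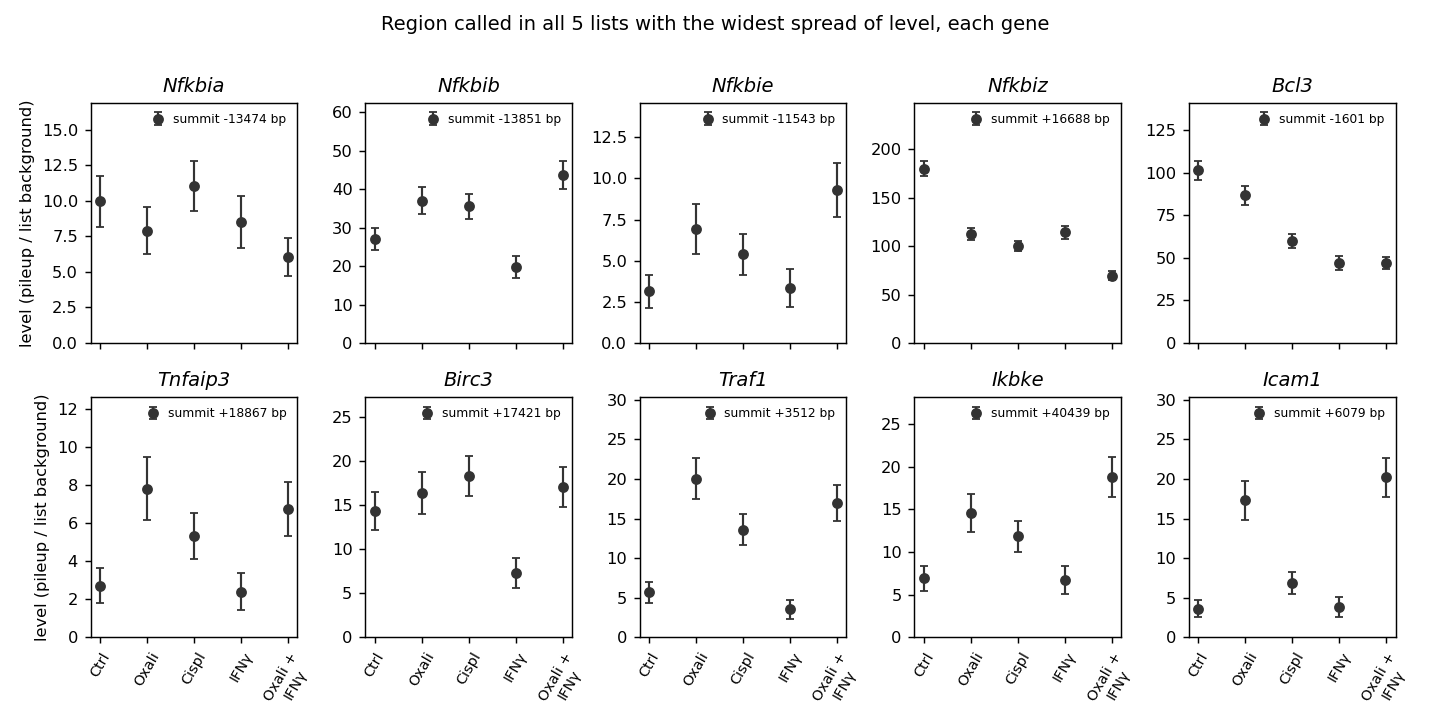
Level (y axis, from 0) in each list (x axis) of the region with the widest spread of level among those called in all 5 lists, 1 panel a gene, with bars for 95% Poisson counting error. In Nfkbib, Nfkbie, Tnfaip3, Birc3, Traf1, Ikbke and Icam1 the lists with a platinum drug lie above Ctrl and IFNγ, whereas the internal start of Nfkbiz and the upstream region of Bcl3 are highest in Ctrl.

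Among regions called in both lists, those with a consensus match had the lower median ratio to Ctrl in every treated list, a difference that was not tested. The median ratio of the 13 with a match was 0.725 with IFNγ, and that of the 14 in the other lists was 0.844 with Cispl, 0.879 with Oxali and 0.761 with Oxali + IFNγ. Regions without a match had 0.856, 0.985, 0.951 and 0.912 in this order. At least 1.5 times higher were 0 of 13 with a match and 1 of 68 without for IFNγ, 4 of 14 and 12 of 67 for Oxali, 3 of 14 and 14 of 66 for Oxali + IFNγ, and 4 of 14 and 12 of 68 for Cispl. At least 1.5 times lower were 4 of 13 with a match and 13 of 68 without for IFNγ, 0 of 14 and 5 of 67 for Oxali, 4 of 14 and 8 of 66 for Oxali + IFNγ, and 4 of 14 and 6 of 68 for Cispl. The sets differed in place and starting level. With Oxali, 8 of the 14 with a match and 4 of the 67 without lay at the genes' own starts, and their median Ctrl levels were 31.96 and 20.02. Outside the starts the order turned in each list with a platinum drug, since the 6 regions with a match had median ratios of 1.22 with Cispl, 1.32 with Oxali and 1.19 with Oxali + IFNγ, against 0.961, 0.951 and 0.909 without. With IFNγ the 5 with a match had 0.725, against 0.856. The part of place and starting level was not tested. Of the gained regions, 3 of 25 with Oxali held a match, 5 of 41 with Cispl, 0 of 13 with IFNγ and 5 of 30 with Oxali + IFNγ, where the genome's gained regions had 4.62%, 3.75%, 3.52% and 4.77%. These counts are of merged regions, 1 fewer than the list's gains with Cispl.

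Oxaliplatin and cisplatin are platinum drugs given here at the same dose and time. They differ in their ligands, oxaliplatin carrying a diaminocyclohexane group and an oxalate leaving group where cisplatin carries ammines and chlorides. At the 98 regions called in both lists the median ratio of Oxali to Cispl was 1.11, and over the genome it was 1.07. At least 1.5 times higher with Oxali were 5 of 98 (5.10%, genome 12.2%), and at least 1.5 times lower were 2 of 98 (2.04%, genome 6.95%). The highest ratio was that of the Icam1 intron, 2.51 (1.95 to 3.24). The others of the 5 were a region 7582 bp upstream of Traf1 at 1.903 (1.21 to 3.02), a region 11602 bp downstream of the Nfkbia start at 1.69 (1.51 to 1.88), the Traf1 region 18738 bp upstream at 1.69 (1.23 to 2.32) and the first Nfkbie intronic region at 1.67 (1.27 to 2.21). The lower regions were that 9362 bp upstream of Nfkbib, in Sirt2, at 0.592 (0.433 to 0.802) and a weak Rassf5 region near Ikbke at 0.559 (0.341 to 0.895). At the Traf1 start-site region the ratio was 1.48 (1.21 to 1.801). At that of Ikbke it was 0.883 (0.701 to 1.11), an interval that includes 1 and does not show that the drugs acted alike there. With 1 list a drug, none of these 98 differences could be tested.

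Adding IFNγ to oxaliplatin changed few levels by as much as 1.5 times. At the 97 regions called in both lists the median ratio of Oxali + IFNγ to Oxali was 0.947, and over the genome 0.995. At least 1.5 times higher were 3 of 97 (3.09%, genome 4.01%) and lower 2 of 97 (2.06%, genome 4.53%). The higher regions were that of Sirt2 near Nfkbib at 1.79 (1.32 to 2.44), the region 850 bp upstream of Ikbke at 1.70 (1.28 to 2.28) and the next Nfkbie intronic region at 1.63 (1.27 to 2.09). The lower were the region 1601 bp upstream of Bcl3 at 0.541 (0.488 to 0.5998) and the internal start of Nfkbiz at 0.616 (0.565 to 0.672). At the Icam1 intron the ratio was 1.17 (0.967 to 1.41), and at the Traf1 start-site region 0.846 (0.6996 to 1.02), with both intervals including 1. Against IFNγ alone the median ratio was 1.202 over 80 regions (genome 1.26), a log2 ratio of 0.27 that centring on the regions called in all 5 lists turned to -0.33 (genome -0.27). Of these, 21 were at least 1.5 times higher with Oxali + IFNγ (26.2%, genome 36.3%) and 3 lower (3.75%, genome 5.54%), and the Icam1 intron was at 5.26 (3.72 to 7.64).

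The rest of the pathway was counted in the same way, over 28 genes of the NF-κB subunits, the IκB kinases, the receptors' adaptors and further inhibitors. A gained region lay in the windows of 19 of the 28 with IFNγ, 16 with Oxali, 24 with Oxali + IFNγ and 27 with Cispl, where 44.7%, 73.4%, 78.1% and 79.6% of all protein-coding genes had one. As shares of strong regions, 32 of 277 (11.6%) were gained with IFNγ, 36 of 292 (12.3%) with Oxali, 58 of 314 (18.5%) with Oxali + IFNγ and 88 of 348 (25.3%) with Cispl. These shares of regions were below those of the 10 genes and of the genome given above. The median ratios to Ctrl were 0.809, 1.03, 0.984 and 0.987 in this order.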

How the data were processed

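ATAC-seq was measured in 10 libraries of Myc-CaP cells, 2 for each of 5 groups taken from the labels. Per the labels and the study's methods, the authors trimmed reads with cutadapt, aligned them with Bowtie2 2.2.8 to mm10, filtered them with SAMtools and called peaks with MACS2 2.1.0 on the pooled libraries of a group. The deposited files give for each peak the fold (ratio) of pileup over local background and −log10 p-value and −log10 q-value. The Cispl list ends at a −log10 p of 2.99 and the others at 2.00.

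Whole-number pileups were recovered from the deposited fold and −log10 p for 100% of peaks and divided by the genome background of the list to give the level. Both mates of a fragment may count, so counting intervals (exact conditional binomial for ratios, Wilson for shares, 95%) are too narrow and cover counting error only. Regions overlapping by 1 bp were merged across lists. A strong region had a q-value of at most 0.01. Start sites were 1 kb around principal transcript starts. Named were, in each window, the start-site regions, the strongest gain by q-value with each treatment, the region called in all 5 lists with the widest spread, and gained regions with a consensus match. The members, lists and rules were chosen with earlier results of these data known. Scripts were tested on simulated data and run with Python 3.11.15, scipy 1.17.1, pandas 2.3.3 and pysam 0.24.0. Some genes of the luminal marker list are not reported here.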

Additional observations from a re-analysis of the deposited data

How the results depend on the processing

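The shares and medians were recomputed with 1 choice changed at a time, and of 138 such values 100 stayed inside the 95% interval of the value reported (Wilson for shares, binomial ranks for medians). Windows of 5 kb or 50 kb, a common −log10 p of 3, 25% cover, only strong regions and every region as strong moved no share or median they apply to outside it. Where regions within 500 bp counted as shared, gains were 13.5% with Oxali, 19.8% with Cispl and 5.21% with IFNγ, and losses 2.22% in each list with a platinum drug. With q-values up to 1e-05, gains were 24.8% with Cispl and 6.25% with IFNγ and losses 3.75% with IFNγ. With the 100000 regions of lowest p in each list, gains were 14.3% with Cispl and 16.5% with Oxali + IFNγ and losses 2.63% with IFNγ.

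Centring each list on the regions called in all 5 changed the most values. Median log2 ratios became -0.0395 with IFNγ, -0.46 with Oxali, -0.51 with Oxali + IFNγ and -0.34 with Cispl (uncentred -0.27, -0.09, -0.14 and -0.07), 0.0347 for Oxali over Cispl and -0.33 for Oxali + IFNγ over IFNγ, which changed sign from 0.27. Regions at least 1.5 times higher were then 12.3%, 6.10% and 12.5% with Oxali, Cispl and Oxali + IFNγ (genome 15.8%, 15.5% and 17.3%), and lower 38.3%, 29.3%, 7.41% and 43.8% with Oxali, Cispl, IFNγ and Oxali + IFNγ. With the deposited fold, higher were 8.64% with Oxali and 6.10% with Cispl, and lower 2.47%, 6.10% and 8.64% with Oxali, Cispl and IFNγ. At a fold of 2, higher were 12.3%, 1.22%, 0% and 11.2%, and lower 0%, 2.44%, 2.47% and 7.50%, in the order Oxali, Cispl, IFNγ and Oxali + IFNγ. Ratios of single regions were less stable, and 97 of 184 stayed inside their counting interval. Centring moved 44 of them outside it and the deposited fold 38. The deposited fold also reversed 4, to 0.915 with Cispl in Sirt2 near Nfkbib, to 0.994 with Oxali and 0.917 with Cispl in the Traf1 intron and to 0.742 with Oxali in the adjacent Tnfaip3 intronic region, and centring reversed the last, to 0.904. The cause was not tested. The direct comparisons and the regions named after their values were seen were added to these alternatives after seeing the data. No paired analysis was possible because each list already merges both libraries of its group, and leaving out a replicate was not run for the same reason.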
